A study of Mus musculus and Homo sapiens with 15 samples.

Results

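The thymic epithelium genes described here are 10 genes: Prss16, Psmb11, Foxn1, Dll4, Aire, Fezf2, Krt5, Krt8, Epcam and Pth. They were taken by symbol, and all 10 were found in the mouse thymus table, which lists 52340 genes, and in the mouse graft table, which lists 56691. The members were chosen by name and by their CPM in these same W/W and graft groups, in particular cortical against medullary genes, so every level and difference given for these 10 genes is a description without a test. RNA sequencing was done on 15 samples, of which 13 are mouse libraries and are used here and 2 are human U937 leukaemia cells and are not. Of the mouse libraries 9 came from the thymus of W/W mice, which are homozygous for the R282W mutation of p53 and carried T-lymphomas, sampled at day 150. Of the W/W mice, 3 were given water, 3 received arsenic trioxide (ATO) and had progressing tumours, and 3 received ATO and had regressing tumours. The labels divide the ATO-treated mice by outcome, so the treatment and the outcome cannot be told apart in a comparison with water. The other 4 libraries came from tumours of a graft model, called a CDX model in the labels, in C57 mice with the genotype label WT that were given PBS, a saline buffer (n = 2), or ATO (n = 2). The labels name neither the grafted cells nor the site of the graft. Nothing in the labels says what a replicate number marks, and p-values below measure the spread between these samples only.

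The epithelium of the thymus makes the niche in which T cells mature. Its outer part, the cortex, attracts progenitors, commits them to the T lineage through Notch ligands and presents peptides that let CD4 CD8 double-positive thymocytes survive. Its inner part, the medulla, displays antigens of other organs to remove self-reactive cells, and both parts depend on the transcription factor Foxn1. The parathyroid gland arises beside the thymus from the same pharyngeal pouch, and Pth encodes its hormone.

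Library totals ran from 12800367 to 17550594 counts in the W/W thymus and from 12922147 to 15637644 in the grafts, and between 20679 and 27114 genes had a count. Mitochondrial counts made up 2.55%, 3.79% and 2.75% of the water libraries, 4.70%, 8.83% and 4.86% of the progressing libraries, 2.08%, 2.96% and 8.48% of the regressing libraries, 0.521% and 1.02% of the PBS grafts, and 5.98% and 4.03% of the ATO grafts. Every progressing library was thus above every water library, as every ATO graft was above every PBS graft, and the part of this in the differences below was not tested. All 9 genes of a T cell list were above 3 counts in at least 1 library of every group. Normal thymocytes carry these genes too, so this does not check the T-lymphoma label. Levels are given as CPM, counts scaled to a common library size after TMM factors, a correction for composition, were applied. These factors were 0.747 in water replicate 2 and 0.794 in progressing replicate 2, and above 1 in the other W/W libraries. CPM is not corrected for gene length, so levels of different genes are compared only as CPM per kilobase of exon. Where no library of a group had more than 3 counts of a gene, the gene is said to be at the floor there. In bulk tissue, fewer cells of a type and less RNA per cell cannot be told apart, which holds for every level below.

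Where the 10 genes lie is given on GRCm38, the build whose gene coordinates the W/W table holds. Prss16 spans 22002173 to 22009742 on chromosome 13 (minus strand) and Psmb11 54621433 to 54629556 on chromosome 14 (plus strand). Foxn1 spans 78357577 to 78386558 on chromosome 11 (minus strand) and Dll4 119325784 to 119335962 on chromosome 2 (plus strand). Aire spans 78030022 to 78043610 on chromosome 10 (minus strand) and Fezf2 12342094 to 12348189 on chromosome 14 (minus strand). Krt5 and Krt8 lie in the keratin cluster of chromosome 15, at 101707070 to 101712898 and 101996698 to 102004482, both on the minus strand. Epcam spans 87635979 to 87651129 on chromosome 17 (plus strand) and Pth 113385580 to 113388570 on chromosome 7 (minus strand). The span of Aire overlaps that of Dnmt3l, and those of Dll4, Krt5 and Krt8 overlap non-coding genes, each on the opposite strand. Since the use of strand in the counting is not given in the sources used here, reads from such partners cannot be told apart.

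Upstream sequence, 250 bases before the RefSeq transcription start, was read for 9 of the 10 genes, the exception being Prss16. All windows were searched on both strands for GACGC, the core motif known for Foxn1, and for TATAAA, the TATA box. Of 32851 mouse windows of this length, 22.6% held GACGC and 12.4% held TATAAA. The first of these was found in Psmb11 (62 and 239 bases before the start), Fezf2 (179 bases) and Aire (189 bases), and in none of the windows of Foxn1, Dll4, Krt5, Krt8, Epcam and Pth. Windows of the chemokines Cxcl12 and Ccl25 were searched as well. Cxcl12 held GACGC (62 bases), and Ccl25 held it in its first window (56 bases) and not in its second. A match is only a run of letters and not a known binding site. The Psmb11 window falls in the untranslated exon of another annotated Psmb11 transcript, and the Dll4, Fezf2 and Krt8 windows also overlap annotated exons. The first Ccl25 window, which holds the motif, overlaps an exon and untranslated region of Elavl1 on the opposite strand. The windows of Pth and Aire are shown because Pth separated the regressing libraries from all others and Aire did not, and that of Cxcl12 because this chemokine of the cortex rose with regression and holds the motif on the opposite strand. They are chr7:113388574-113388823 (minus strand), chr10:78043611-78043860 (minus strand, in an intron of Dnmt3l) and chr6:117168285-117168534 (plus strand, outside annotated genes), on GRCm38.p6, written 5′ to 3′ along the gene. Capitals mark both motifs, the Foxn1 core being on the opposite strand and so reading GCGTC.
Pth: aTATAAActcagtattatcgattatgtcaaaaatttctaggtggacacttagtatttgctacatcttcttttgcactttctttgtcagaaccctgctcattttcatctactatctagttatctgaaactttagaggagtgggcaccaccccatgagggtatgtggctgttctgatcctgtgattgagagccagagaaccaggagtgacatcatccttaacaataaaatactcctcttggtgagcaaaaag
Aire: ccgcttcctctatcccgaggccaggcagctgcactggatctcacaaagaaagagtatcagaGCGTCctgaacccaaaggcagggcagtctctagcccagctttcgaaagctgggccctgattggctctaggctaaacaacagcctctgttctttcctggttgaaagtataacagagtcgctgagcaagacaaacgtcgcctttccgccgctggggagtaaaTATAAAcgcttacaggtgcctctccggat
Cxcl12: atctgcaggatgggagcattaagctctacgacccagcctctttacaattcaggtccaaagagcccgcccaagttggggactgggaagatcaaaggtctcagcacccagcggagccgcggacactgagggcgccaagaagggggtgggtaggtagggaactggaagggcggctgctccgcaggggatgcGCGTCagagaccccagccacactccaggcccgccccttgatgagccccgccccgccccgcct
The TATAAA of Aire lies 29 bases before the start, and that of Pth 249 bases before it.

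In the W/W thymus, the genes of the cortex were highest in regressing tumours, the genes of the medulla were spread widely over the water libraries and low in progressing tumours, and Pth had counts beyond the floor in regressing tumours alone. Prss16, a serine protease of cortical epithelium that helps to make peptides for MHC class II, was counted 25, 399 and 101 times with water, 7, 4 and 1 times with progression and 14443, 11351 and 10386 times with regression. Each regressing library exceeded each water library, and each water library exceeded each progressing library. The mean level was 12.8 ± 15.5 CPM (SD, n = 3) with water, 0.281 ± 0.186 (n = 3) with progression and 793 ± 105 (n = 3) with regression. The ratio of means was 62.1 for regressing over water and 2822 for regressing over progressing, the latter against a group with 12 counts in all.

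**Figure D1:**
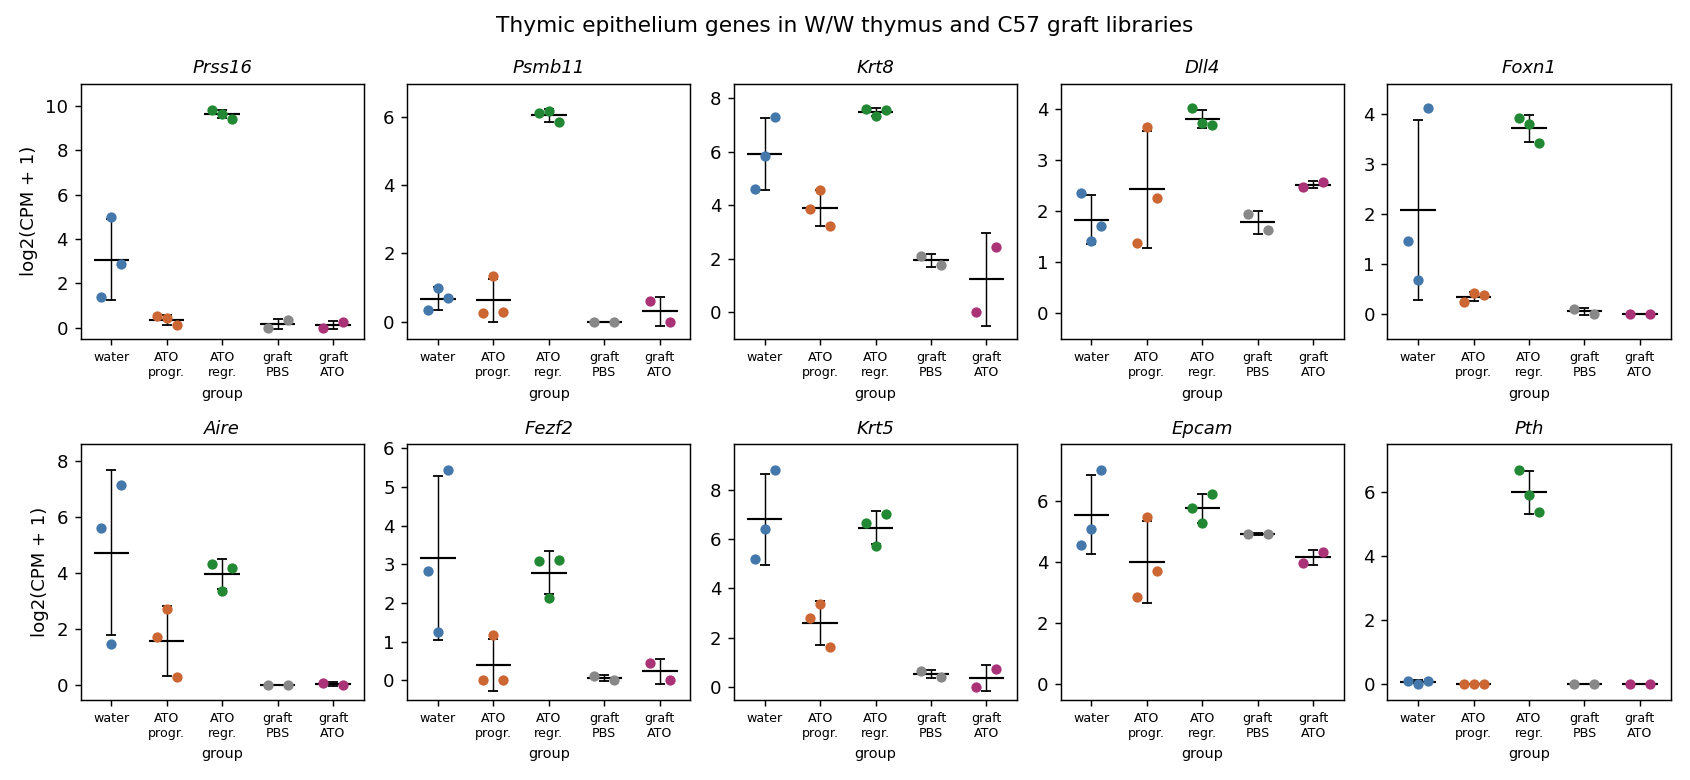
Levels of the 10 genes by library as log2(CPM + 1), with the group mean as a bar and the SD as a whisker (n = 3 for each W/W group, n = 2 for each graft group). Prss16, Psmb11 and Pth are separated from all other groups in the 3 regressing libraries, while Aire, Fezf2 and Krt5, like Foxn1 and Epcam, have their highest values in a water library.

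Psmb11 encodes the thymoproteasome subunit beta5t, found in cortical epithelium, which shapes the peptides shown to developing CD8 T cells. It had 4, 13 and 10 counts with water, 3, 18 and 3 in progressing tumours and 1098, 1011 and 850 in regressing tumours. The regressing libraries stood apart from all others, and the water and progressing libraries overlapped. Its level was 65.1 ± 8.04 CPM (n = 3) with regression, 105 times the water mean of 0.623 ± 0.367 (n = 3) and 101 times the progressing mean of 0.642 ± 0.762 (n = 3). Among the regressing libraries Prss16 and Psmb11 kept a narrow ratio, with 15.1, 12.9 and 14.0 times as much Prss16 as Psmb11 per kilobase of exon.

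Dll4, the Notch ligand through which cortical epithelium commits progenitors to the T lineage, is also made by endothelium. It had 64, 22 and 37 counts with water, 26, 137 and 52 in progressing tumours and 246, 173 and 181 in regressing tumours. As CPM the regressing libraries were the highest, from 11.9 to 15.2, but progressing replicate 2 came close at 11.6. The mean in regressing tumours, 13.1 ± 1.82 CPM (n = 3), was 4.87 times that with water and 2.31 times that in progressing tumours. The summed level of 9 endothelial genes ranged from 106 to 183 CPM with water, 139 to 296 in progressing tumours and 150 to 354 in regressing tumours. Of these 9 genes, edgeR's quasi-likelihood test called 0 in each W/W contrast. At an unadjusted p under 0.05 it gave 1, higher in progressing tumours than with water, which DESeq2 also called. Their part in the Dll4 level was not tested.

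Krt8, a keratin of simple epithelium that in the thymus is typical of the cortex, was measured at 364, 741 and 2510 counts with water, 217, 271 and 115 in progressing tumours and 3100, 2278 and 2852 in regressing tumours. The 3 groups did not overlap as CPM. The level was 78.3 ± 68.4 CPM (n = 3) with water, 14.9 ± 7.35 (n = 3) with progression and 180 ± 16.9 (n = 3) with regression, but the lowest regressing library (161 CPM) was only just above water replicate 3 (155 CPM). Krt8 gave a ratio of means of 2.30 for regressing over water, the smallest of the 4 cortical genes.

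Foxn1, the transcription factor that epithelial cells of both cortex and medulla need, had 27, 8 and 265 counts with water, 3, 4 and 4 with progression and 230, 183 and 147 with regression. Water replicate 3, at 16.4 CPM, was above every regressing library (9.69 to 14.2 CPM), while the other water libraries were below them, so these groups overlapped. The mean with regression was 12.3 ± 2.33 CPM (n = 3), 1.97 times the water mean of 6.24 ± 8.79 (n = 3) and 45.1 times the progressing mean of 0.272 ± 0.0788 (n = 3). Relative to Foxn1, Psmb11 was 3.20, 3.71 and 3.88 times as abundant per kilobase in the regressing libraries, against 0.0994, 1.09 and 0.0253 times in the water libraries. In the progressing libraries the ratio rests on 3 to 18 counts per gene and library and was 0.671, 3.02 and 0.503. Thus the higher Psmb11 level with regression was not matched in size by Foxn1.

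Epcam, an adhesion molecule of epithelial cells in general, showed the least order among the groups. It had 350, 432 and 2071 counts with water, 100, 514 and 166 with progression and 871, 536 and 1122 with regression. All 3 groups overlapped: the means were 61.1 ± 58.0 CPM, 20.6 ± 20.0 CPM and 55.2 ± 18.1 CPM (n = 3 each).

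Aire, the transcriptional regulator with which medullary epithelium turns on genes of other organs, had a lower mean with regression than with water, unlike the 4 cortical genes, though its groups overlapped. It had 728, 23 and 2252 counts with water, 37, 67 and 3 in progressing tumours and 309, 132 and 262 in regressing tumours. Water replicates 1 and 3 (46.9 and 139 CPM) were above all regressing libraries (9.32 to 19.1 CPM), and water replicate 2 (1.76 CPM) was below them. The mean in regressing tumours, 15.2 ± 5.21 CPM (n = 3), was 0.243 times that with water (62.6 ± 70.0, n = 3) and 5.6 times that in progressing tumours (2.72 ± 2.75, n = 3).

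Fezf2, a second regulator of antigens of other organs in the medulla, had 94, 18 and 690 counts with water, 0, 15 and 0 with progression and 121, 48 and 116 with regression. Its order over the water libraries was that of Aire, with replicate 3 highest and replicate 2 lowest. The mean level was 16.7 ± 22.6, 0.423 ± 0.732 and 6.17 ± 2.41 CPM (n = 3 each) with water, progression and regression. In the regressing libraries Fezf2 per Aire was steady at 0.492, 0.456 and 0.556 per kilobase.

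Krt5, a keratin of basal cells that marks much of the medulla, was present in every W/W library, with 552, 1088 and 7075 counts with water, 96, 111 and 28 with progression and 1588, 726 and 1936 with regression. Its mean with regression, 92.4 ± 38.5 CPM (n = 3), lay between the water mean of 185 ± 219 (n = 3) and the progressing mean of 5.79 ± 3.66 (n = 3), and the water and regressing libraries overlapped. Aire per Krt5 varied over the water libraries, at 0.758, 0.0121 and 0.183 per kilobase, and was 0.112, 0.104 and 0.0777 in the regressing libraries. The keratin pair gave Krt8 per Krt5 ratios of 0.740, 0.764 and 0.398 per kilobase with water, 2.54, 2.74 and 4.61 with progression and 2.19, 3.52 and 1.65 with regression. So Krt8 was the less abundant of the pair in each water library and the more abundant in each ATO-treated library, whichever way the tumour went.

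Pth, the hormone that raises blood calcium, had 1, 0 and 1 counts with water, 0, 0 and 0 in progressing tumours and 1652, 845 and 608 in regressing tumours. Both other groups were at the floor, and the mean with regression, 67.3 ± 31.8 CPM (n = 3), was at least 294-fold higher than the floor of the water group and at least 265-fold higher than that of the progressing group. Over the regressing libraries Pth was highest in replicate 1 (102 CPM) and lowest in replicate 3 (40.1 CPM), a wider spread than that of Prss16 (685 to 894 CPM).

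Counted over the 10 genes, 5 lay above all water libraries in every regressing library (Prss16, Psmb11, Dll4, Krt8 and Pth), 0 lay below and 5 overlapped; over all 18119 genes tested, 19.3% lay above and 20.9% below. In progressing against water, 0 lay above and 5 below (Prss16, Foxn1, Fezf2, Krt5 and Krt8), where 11.9% and 14.7% of all genes did. In regressing against progressing, 9 lay above and Epcam overlapped, where 21.4% of all genes lay above and 20.6% below. All 10 genes passed the filter on low counts in the W/W table. The share of genes called by edgeR's quasi-likelihood test at an adjusted p under 0.05 was 7.70% in regressing against water, 11.9% in progressing against water and 12.6% in regressing against progressing. The comparisons share groups: each W/W group enters 2 of the 3 W/W comparisons.

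The balance of the compartments was expressed as the log2 ratio of the summed CPM of Prss16, Psmb11, Dll4 and Krt8 to that of Aire, Fezf2 and Krt5. It is not corrected for length, so only its differences between libraries are read. Its values were -1.59, 0.06 and -1.91 with water, 0.93, 1.16 and 2.46 with progression and 3.23, 4.03 and 2.62 with regression. With these 7 genes the 3 groups did not overlap, with means of -1.15 ± 1.06, 1.52 ± 0.83 and 3.29 ± 0.71 (SD, n = 3 each). Behind a ratio above 0 in both ATO groups lay different sums. In progressing tumours both were low, 12.6 to 36.3 CPM for the cortical and 2.28 to 16.3 CPM for the medullary genes, and in regressing tumours the cortical sum was 941 to 1169 CPM and the medullary sum 64.0 to 153 CPM. In the water libraries the cortical sum was 29.5, 89.7 and 164 CPM and the medullary sum 88.6, 86.2 and 618 CPM. The group means kept this order with fewer genes, but not their side of 0, and the groups then overlapped. With Prss16 and Psmb11 alone for the cortex the means were -4.51 with water, -3.27 with progression and 3.0 with regression, and water replicate 2 (-1.45) lay above all 3 progressing libraries (-3.73 to -2.95). With Aire and Fezf2 alone for the medulla the means were 1.28, 3.67 and 5.69. Water replicate 2 (4.84) then lay above 2 progressing libraries, and progressing replicate 3 (5.83) above regressing replicates 1 and 3 (5.46 and 5.24).

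**Figure D2:**
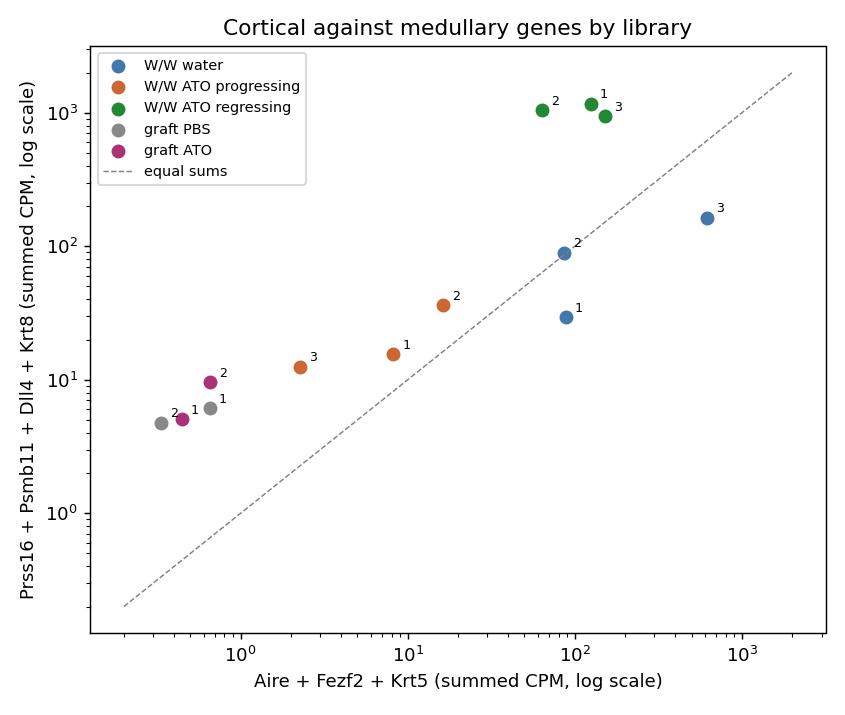
Summed CPM of the 4 cortical genes (vertical axis) against that of the 3 medullary genes (horizontal axis) for each of the 13 mouse libraries, on log axes; numbers are replicates and the dashed line marks equal sums. The 3 regressing libraries have cortical sums of 941 to 1169 CPM, above the other 10 libraries, at medullary sums that fall within the range of the water libraries or just under it.

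Beyond the 10 genes, other genes of the thymic epithelium were followed in lists of known genes and tested. These lists too were drawn up with earlier results of the same libraries known, so their counts and p-values are not independent evidence. Of 18 further genes of the cortical epithelium, 17 rose in regressing against progressing tumours and 0 fell, where 6.45% of all genes rose and 6.18% fell. Their median log2 difference was 4.31, against -0.07 over all genes tested. Tbata, a gene of cortical epithelium that restrains its growth, had 5, 42 and 2 counts with progression and 7025, 5928 and 4519 with regression, a log2 difference of 8.21 (SE 1.25, edgeR adjusted p = 0.00924). Ccl25, the chemokine that draws progenitors to the thymus, had 211, 222 and 301 counts with progression and 5715, 5074 and 4934 with regression (log2 difference 4.27, SE 0.43, edgeR adjusted p = 0.00298). Cxcl12, a chemokine that keeps thymocytes in the cortex, had 299, 285 and 658 against 4702, 3795 and 3773 counts (log2 difference 3.15, SE 0.41, edgeR adjusted p = 0.00733). In all of these the regressing libraries were far above the progressing ones. The span of Ccl25 overlaps that of the protein-coding gene Elavl1 on the opposite strand. Reads from that partner cannot be told apart, as the use of strand is not given.

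The transcription factors of the early thymus moved the same way. Pax1 went from 0.382 ± 0.332 to 53.3 ± 6.03 CPM (n = 3 each) between progressing and regressing tumours, with a log2 difference of 7.09 (SE 1.03, edgeR adjusted p = 0.00924). Pax9 differed by 5.36 (SE 0.95, adjusted p = 0.0130) and Isl1 by 6.90 (SE 0.92, adjusted p = 0.00782), and Slc46a2, a transporter of thymic epithelium, by 7.52 (SE 1.15, adjusted p = 0.00924). Ctsl, the cathepsin of cortical epithelium that processes MHC class II peptides, differed by 1.98 (SE 0.51, adjusted p = 0.0342), and Ly75, an endocytic receptor also found on dendritic cells, by 1.23 (SE 0.27, adjusted p = 0.0215). Tbata, Ccl25, Cxcl12, Pax1, Isl1 and Slc46a2 passed in all 6 fits that each left out 1 library. Pax9 passed in 5 and was lost without regressing replicate 1 (log2 difference 5.15, adjusted p = 0.0511). Ly75 passed in 2 of 6 (adjusted p = 0.0405 to 0.0917), those without progressing replicate 1 or 2, and Ctsl in 1 (adjusted p = 0.0345 to 0.104), that without progressing replicate 2. The 1 gene of the list that did not pass was Scx, at 1.49 (SE 0.78, adjusted p = 0.215).

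Against water, 5 of the 18 cortical genes rose in regressing tumours and 0 fell, where 3.13% of all genes rose and 4.57% fell, with a median log2 difference of 1.9 against -0.11 over all genes. The 5 were Ccl25 (3.84, SE 0.42, edgeR adjusted p = 0.00267), Cxcl12 (2.56, SE 0.40, 0.0103), Ctsl (2.48, SE 0.52, 0.0232), Ly75 (1.42, SE 0.27, 0.0169) and Tbata (4.27, SE 1.02, 0.0348). In progressing against water 0 rose and 10 fell, where 4.77% of all genes rose and 7.13% fell; Slc46a2 fell by 5.47 (SE 1.08, adjusted p = 0.0118) and Isl1 fell by 4.95 (SE 0.87, adjusted p = 0.00764) on the log2 scale. The summed level of the 18 genes was 349 to 536 CPM with water, 258 to 530 with progression and 2405 to 2630 with regression. Much of these sums was Ctsl, with means of 185, 261 and 1031 CPM (n = 3 each) with water, progression and regression. Ctsl does not mark cortical epithelium alone here. Its mean was 151 CPM in the PBS grafts (n = 2), where Tbata, Slc46a2 and Pax1 were at the floor. The part of other cells in the cortical sums was not tested. The counts of called genes depend on single libraries. In regressing against progressing 17 became 9 without regressing replicate 1 and 11 without progressing replicate 3, and 12 to 16 without another. Against water 5 became 1 without regressing replicate 1 or 2, and 10 without water replicate 3. Ccl25 alone of the 5 passed without any 1 library. Cxcl12 (up to 0.0561), Ctsl (up to 0.0935) and Ly75 (up to 0.111) were lost without regressing replicate 1 or 2, and Tbata (up to 0.122) passed only without water replicate 3. The 10 that fell with progression became 6 without progressing replicate 1 or 3 or water replicate 3.

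**Figure D3:**
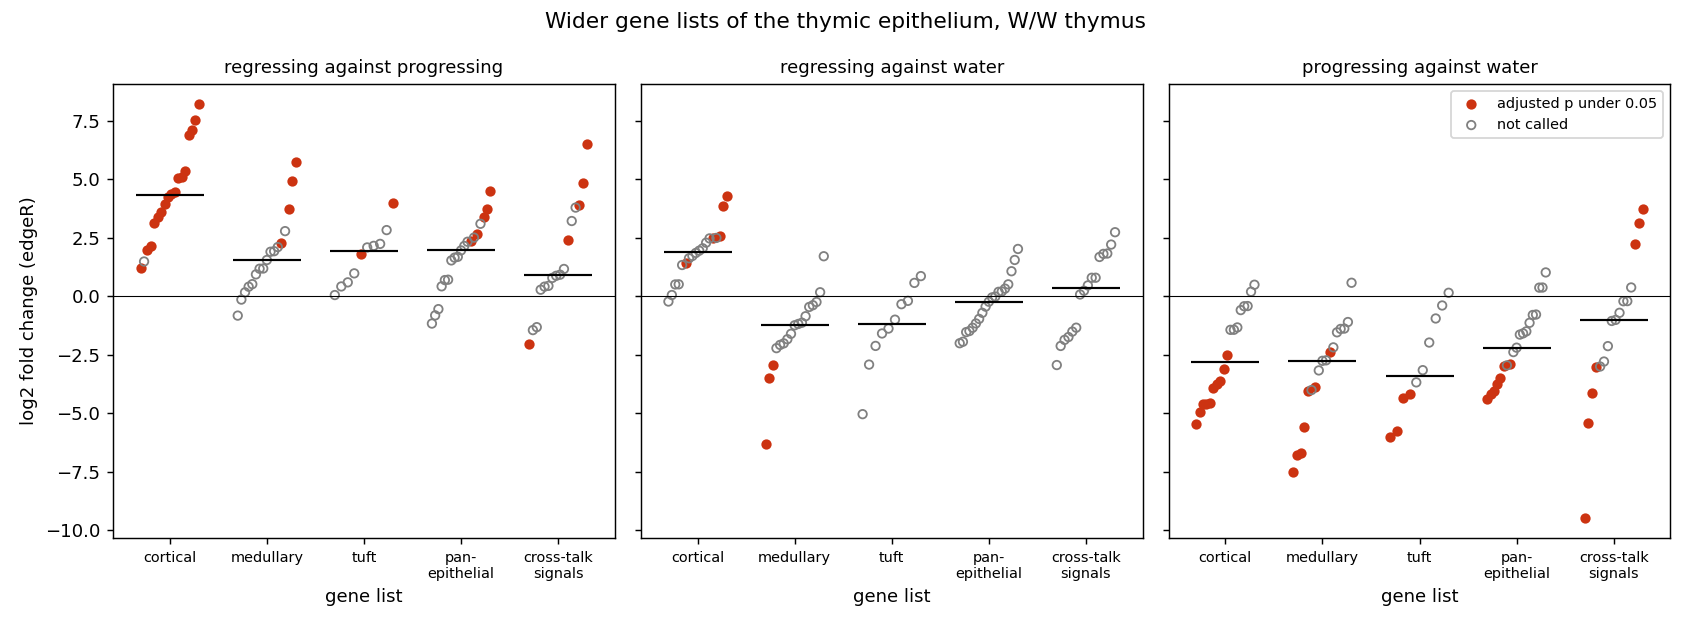
Fitted log2 fold change of each tested gene in 5 lists of thymic epithelium genes and of signals between thymocytes and epithelium, for the 3 W/W comparisons; filled points passed at an adjusted p under 0.05 and bars are list medians. In regressing against progressing, 17 of 18 cortical points are filled and above 0, against 4 of 17 medullary points.

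Of 17 further medullary genes, 4 rose in regressing against progressing tumours, Trp63, Cd40 and Spib among them, and 0 fell, with a median log2 difference of 1.55. Against water 0 rose and 3 fell with regression, at a median of -1.24, and 0 rose and 7 fell with progression. Trp63, which keeps epithelial progenitors dividing and is not restricted to the medulla, had 67, 352 and 473 counts with water, 16, 13 and 21 with progression and 1159, 956 and 894 with regression. Its difference between the outcomes was 5.76 (SE 0.70, edgeR adjusted p = 0.00647), and it passed in all 6 fits that left out 1 library. Ccl21a, the medullary chemokine that guides thymocytes inward, had 84, 4849 and 7589 counts with water, 38, 23 and 4 with progression and 89, 56 and 15 with regression. It fell by 6.33 on the log2 scale with regression against water (SE 1.38, edgeR adjusted p = 0.0253) and fell by 7.51 with progression (SE 1.46, adjusted p = 0.0114). Its near-identical copies may share reads with it, so its counts are uncertain. The fall with regression was lost without water replicate 2 and without any 1 of the regressing replicates (adjusted p = 0.0566 to 0.125). Krt14, the partner of Krt5, was 43.5 ± 52.9, 6.42 ± 5.15 and 24.1 ± 18.4 CPM (n = 3 each) with water, progression and regression, and its difference between the outcomes, 1.91 (SE 0.92), did not pass (adjusted p = 0.182).

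Several genes of the medullary list are also genes of B cells or dendritic cells, among them Spib, Cd40 and Cd80. The difference of Spib between the outcomes was 3.75 (SE 0.71, edgeR adjusted p = 0.0157), lost without progressing replicate 3 (3.59, adjusted p = 0.0579), and that of Cd40 was 2.28 (SE 0.60, adjusted p = 0.0369). Without 1 library Cd40 passed in 1 of 6 fits, that without progressing replicate 3 (adjusted p = 0.0389 to 0.103). The summed level of 5 B cell genes was 62.6 to 3101 CPM with water, 3.21 to 27.3 with progression and 89.9 to 136 with regression, with Pax5 at the floor in progressing tumours. That of 7 dendritic cell genes was 73.5 to 139, 6.23 to 24.4 and 46.4 to 93.4 CPM. Both sums were lowest with progression, as was the medullary sum (at most 101 CPM). Over the water replicates the medullary sum was 380, 931 and 1183 CPM and the B cell sum 1147, 3101 and 62.6 CPM. Ccl21a made up 281 ± 244 CPM (n = 3) of that medullary sum. The fall of Spib with regression against water was weakest without water replicate 2 (log2 difference -1.98), which had the highest B cell sum. The part of B cells and dendritic cells in the medullary list was not tested. The medullary count between the outcomes was 2 without any 1 library other than progressing replicate 2, and 5 without that one. Against water the 3 genes that fell with regression became 0 without water replicate 2, regressing replicate 1 or regressing replicate 2, and 1 without regressing replicate 3.

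Tuft cells, chemosensory cells of the medulla, were followed with 12 genes, of which 10 were tested. In progressing against water 4 fell and 0 rose: Pou2f3, Avil, Gnb3 and Gnat3. Pou2f3, which specifies these cells, had 16, 53 and 95 counts with water, 2, 2 and 4 with progression and 47, 29 and 70 with regression, a log2 difference of 3.98 between the outcomes (SE 0.86, edgeR adjusted p = 0.0205) that passed without progressing replicate 1 and in none of the 5 other fits without 1 library (adjusted p = 0.0465 to 0.0735). Plcb2, a signalling enzyme of tuft cells and also of blood cells, differed by 1.81 (SE 0.38, adjusted p = 0.0199), which was lost without progressing replicate 3, regressing replicate 1 or regressing replicate 2 (adjusted p up to 0.0830). Gnb3, a signalling subunit of taste and tuft cells, had 18, 2203 and 181 counts with water and lost its call without replicate 2, the highest, or without any 1 of the progressing replicates (adjusted p up to 0.130). Against water 0 of the 10 were called with regression by edgeR's quasi-likelihood test, 4 had an unadjusted p under 0.05 (1 higher and 3 lower), and DESeq2 called 1. Of the 4 that fell with progression, Pou2f3 kept its call in all 6 fits without 1 library. Avil (adjusted p up to 0.0898) and Gnat3 (up to 0.102) were lost without progressing replicate 1 or 3 or water replicate 2. The number of tuft cell genes called there was 2 without water replicate 2, another gene being counted, and 1 without progressing replicate 1 or 3, and the 2 that rose between the outcomes became 0 without progressing replicate 3, regressing replicate 1 or regressing replicate 2, and 1 without progressing replicate 2 or regressing replicate 3.

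Among 19 genes of epithelia in general, 5 rose between the outcomes (Krt18, Spint1, Krt7, St14 and Marveld2) and 0 fell, at a median log2 difference of 1.96. Krt18, the partner of Krt8, had 255, 964 and 2254 counts with water, 149, 139 and 114 with progression and 3896, 2979 and 3371 with regression. It rose by 4.52 (SE 0.65, edgeR adjusted p = 0.00924), beside the described difference of 3.60 (SE 0.64) for Krt8. Spint1, a membrane protease inhibitor, differed by 3.72 (SE 0.78, adjusted p = 0.0199) and Krt7 by 3.39 (SE 0.68, adjusted p = 0.0178). Krt18 passed in all 6 fits without 1 library, while Krt7 passed in 4 (adjusted p up to 0.0627), Spint1 in 3 (up to 0.0705), St14 in 2 (up to 0.0784) and Marveld2 in 1 (up to 0.115). Cdh1, the adhesion molecule of epithelia, was 43.7 ± 43.2, 14.1 ± 13.9 and 55.0 ± 11.8 CPM (n = 3 each), and its difference of 1.96 (SE 0.78) did not pass in edgeR (adjusted p = 0.114). It passed with DESeq2 (2.02, adjusted p = 0.0343), with no filter (2.09, 0.00298) and without progressing replicate 2 (3.20, 0.0423). In progressing against water 7 fell and 0 rose, and with regression against water 0 of the 19 passed by edgeR's quasi-likelihood test, 5 had an unadjusted p under 0.05 (3 higher and 2 lower), and DESeq2 called 2. Between the outcomes 5 became 1 without progressing replicate 3 or regressing replicate 1 and 3 without regressing replicate 2 or 3. The 7 that fell became 2 without progressing replicate 3, and 4 without water replicate 3 or progressing replicate 1.

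Antigens of other organs, which Aire and Fezf2 are known to turn on, were low and varied between the water libraries. Of 16 such genes 14 were in the W/W table and 5 passed the filter on low counts. The summed level of the 14 was 25.3, 4.05 and 80.8 CPM in the water libraries, with 9, 3 and 13 genes over 3 counts. The water library with the highest Aire (139 CPM, replicate 3) had the highest sum, and that with the lowest Aire (1.76 CPM, replicate 2) the lowest. Water replicate 3 also had the highest keratinocyte (60.6 CPM), airway (19.8 CPM) and general epithelial (768 CPM) sums of its group. With progression the antigen sum was 51.1, 41.4 and 29.8 CPM and with regression 16.5, 16.7 and 35.1 CPM. In these groups Aire was highest in progressing replicate 2 (5.66 CPM) and regressing replicate 1 (19.1 CPM), neither of which had the highest sum. Only 1, Maoa, passed a test, in progressing against water (log2 difference 3.42, SE 0.68, edgeR adjusted p = 0.0124), with 754, 307 and 99 counts against 28, 26 and 59. Maoa is made in many tissues, and it went the other way from Aire and Fezf2 in that comparison. It made up 46.5, 26.0 and 7.28 CPM of the antigen sums of progressing replicates 1, 2 and 3, and 7.18 to 11.5 CPM of the regressing sums. The order of the antigen sums over the progressing libraries thus largely follows Maoa. Between the outcomes, and in regressing against water, 0 of the 5 passed by edgeR's quasi-likelihood test. At an unadjusted p under 0.05 there were 2 lower between the outcomes and 1 higher against water, and DESeq2 called 1 in each.

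Signals that pass between thymocytes and epithelium were followed with 16 genes. Between the outcomes 4 rose (Wnt4, Ltb, Ccr7 and Cd40lg) and 1, Notch1, fell. Wnt4, which supports Foxn1 expression, had 20, 88 and 134 counts with water, 13, 8 and 7 with progression and 359, 252 and 263 with regression, a log2 difference of 4.83 (SE 0.74, edgeR adjusted p = 0.00924). Ltb, a ligand by which lymphocytes make medullary epithelium mature, differed by 3.90 (SE 0.55, adjusted p = 0.0092), and both passed in all 6 fits without 1 library. Cd40lg had 1574, 4 and 340 counts with water, was at the floor with progression, and had 90, 49 and 106 counts with regression, at least 21.1-fold higher; its call was lost in all 6 such fits (adjusted p = 0.0880 to 0.126). Notch1, the receptor that Dll4 engages, had 779, 212 and 597 counts with water, 8387, 1817 and 9550 with progression and 1773, 1735 and 1510 with regression. It rose with progression against water (log2 difference 3.73, SE 0.59, adjusted p = 0.00515). Between the outcomes the difference was -2.05 (SE 0.55, adjusted p = 0.0374), which passed in 1 of 6 fits without 1 library, that without progressing replicate 2 (adjusted p = 0.0248 to 0.128), and not on library totals alone (adjusted p = 0.0692). The highest Notch1 counts were in progressing replicates 1 and 3, where Dll4 was 1.60 and 3.82 CPM. Ccr7, a receptor for Ccl19 and Ccl21a, differed by 2.39 (SE 0.55, adjusted p = 0.0252) and passed in 2 of 6 such fits (adjusted p = 0.0295 to 0.0813). The 5 calls between the outcomes became 2 without any single regressing replicate or progressing replicate 3, and 3 without progressing replicate 1. Against water 0 of the 16 were called with regression by edgeR's quasi-likelihood test, 8 had an unadjusted p under 0.05 (5 higher and 3 lower), and DESeq2 called 5, while with progression 3 rose and 4 fell.

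The thymocyte genes that move with the cortical genes are given beside them. Rag1, a recombinase of double-positive thymocytes, had 33, 30 and 10 counts with water, 9583, 3052 and 18859 with progression and 53295, 48074 and 22844 with regression. The summed level of 10 double-positive genes was 461 to 621 CPM with water, 2288 to 3385 with progression and 4741 to 9681 with regression. Of these 10, 8 rose with regression and 5 with progression against water, and 1, Aqp11, differed between the outcomes by edgeR's quasi-likelihood test. Between the outcomes 6 were higher with regression at an unadjusted p under 0.05 and DESeq2 called 4. Rag1 was among the latter (DESeq2 adjusted p = 0.0180), against an edgeR adjusted p of 0.0779, or 0.00143 with no filter. Prss16 and the double-positive genes were thus both highest with regression, but with progression the thymocyte sum was above that with water while Prss16 was below it. Cd3e, of all T cells, was 177 ± 61.2, 208 ± 35.4 and 284 ± 70.8 CPM (n = 3 each), and did not pass between any 2 groups. Fibroblast genes went the other way between the outcomes, with 3 of 7 lower and 0 higher in regressing tumours, and the sum of 8 adipocyte genes reached 5292 CPM in regressing replicate 3 against 150 and 624 CPM in the other regressing libraries. The part of these cells in the epithelial levels was not tested. The sum of the 4 cortical genes in that library was the lowest of its group, at 941 CPM against 1046 and 1169 CPM.

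**Figure D4:**
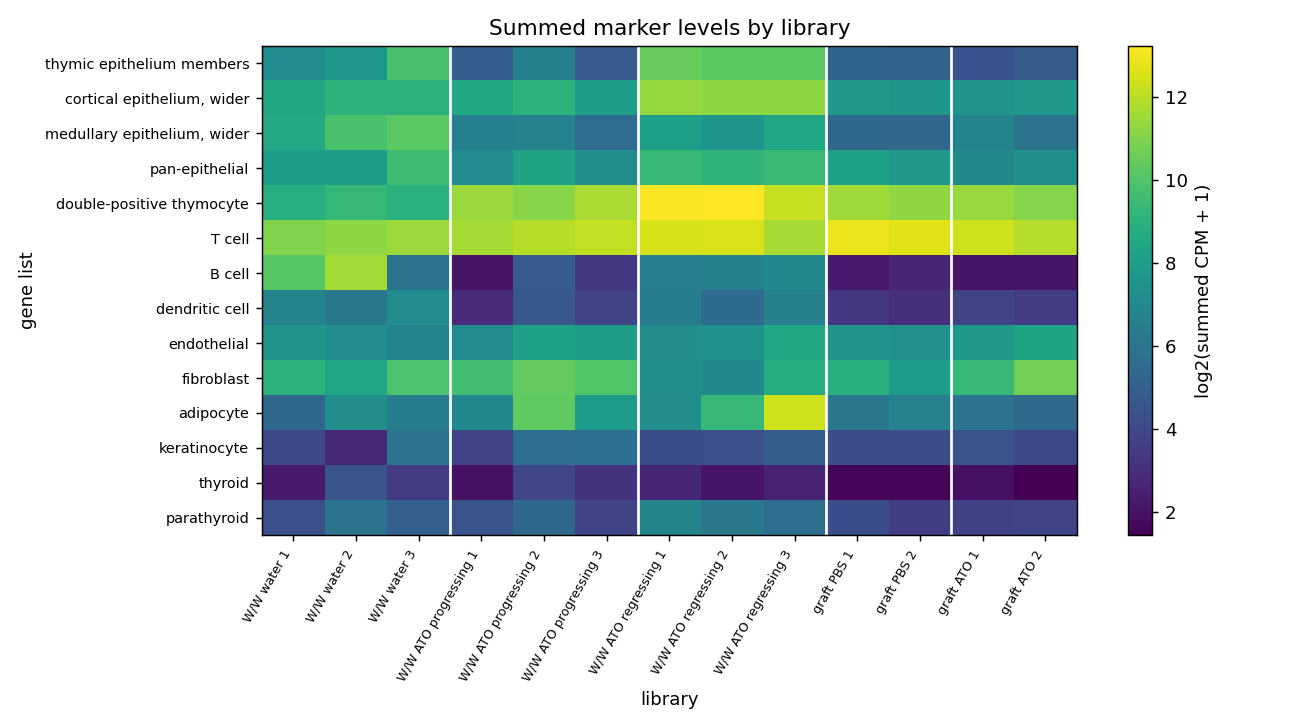
Summed level of each marker list in each of the 13 mouse libraries, as log2(summed CPM + 1) on the colour scale. The cortical row is brightest in the 3 regressing libraries (2405 to 2630 CPM), the B cell and dendritic cell rows are darkest in the progressing and graft libraries, and the adipocyte row is brightest in regressing replicate 3.

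Other genes of the parathyroid were examined beside Pth. Chga, chromogranin A of secretory granules in endocrine cells, had 16, 7 and 79 counts with water, 13, 8 and 5 with progression and 1138, 610 and 295 with regression, the same order over the regressing libraries as Pth. It rose against progression (log2 difference 6.15, SE 0.94, edgeR adjusted p = 0.00924) in all 6 fits without 1 library, and against water (4.35, SE 0.85, adjusted p = 0.0184), where it was lost without regressing replicate 1 (adjusted p = 0.0891) or regressing replicate 2 (adjusted p = 0.0842). Pth per Chga was 5.63, 5.38 and 8.0 per kilobase in the regressing libraries.

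Gcm2, the factor that specifies the parathyroid, stayed low, with 17, 11 and 1 counts with water, 0, 0 and 0 with progression and 32, 14 and 8 with regression. It was at least 4.59-fold above the progressing floor (edgeR adjusted p = 0.0315), lost in all 6 fits without 1 library (adjusted p = 0.0587 to 0.108), and the water and regressing libraries overlapped. Thus water libraries with 17 and 11 counts of Gcm2 had 1 and 0 counts of Pth. Casr, the calcium sensor of parathyroid cells, had 2, 2 and 36 counts with water, 0, 3 and 0 with progression and 21, 5 and 3 with regression, and did not pass the filter on low counts. Chgb, of the same granule family as Chga, did not pass in any W/W comparison, and Sox3 was at the floor in every group. Of 8 thyroid genes 4 were tested, and the summed level with regression was 3.25 to 5.38 CPM, with Pax8 and Nkx2-1 among the genes at the floor. Keratinocyte genes (5 of 9 tested) summed to 18.5 to 31.7 CPM with regression and airway genes (3 of 5 tested) to 5.58 to 7.49 CPM. Between the outcomes edgeR's quasi-likelihood test called 0 of each of these 3 lists. At an unadjusted p under 0.05 it gave 0 thyroid, 1 keratinocyte and 1 airway gene, and DESeq2 called 0, 1 and 1.

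**Figure D5:**
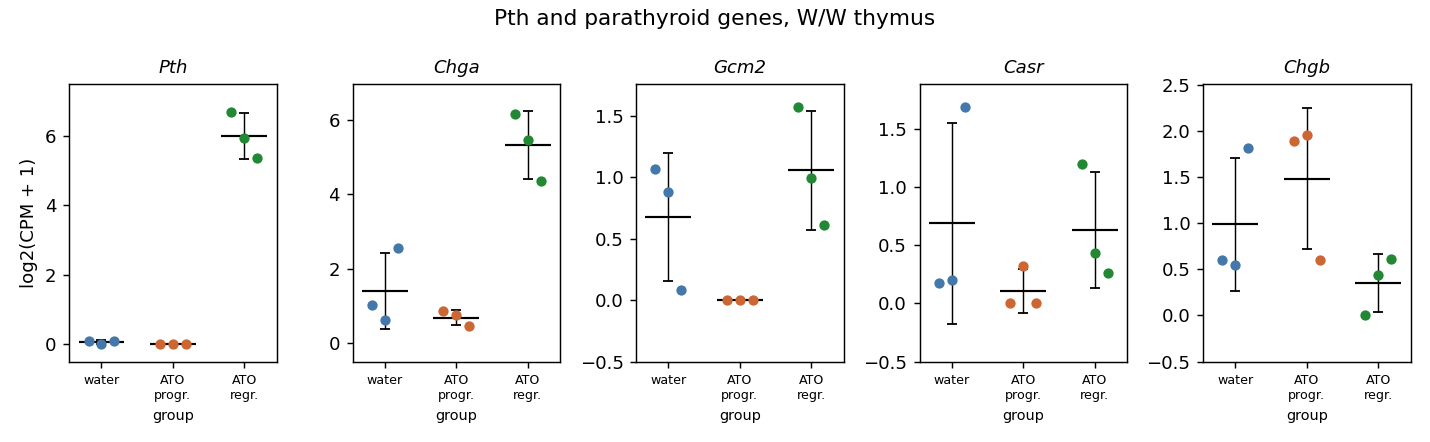
Pth and 4 genes of the parathyroid by library in the W/W thymus as log2(CPM + 1), with group mean and SD (n = 3 each); the vertical scales differ between panels. Pth and Chga are high in the 3 regressing libraries, while Gcm2 and Casr have fewer than 40 counts in every library.

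The genes whose pattern was most like that of Prss16 and of Pth were found over the 9 W/W libraries among the 16362 genes whose mean reached 1 CPM, by the root-mean-square difference of log2(CPM + 1) after each gene's mean was subtracted. Genes with only a serial name, such as Gm, Rik or accession-like names, and mitochondrially encoded genes were passed over when the nearest were named. For Prss16 the nearest 6 named genes outside the 10 were Tbata (1.27), Snhg11 (1.45), Crip3 (1.78), Pax1 (1.94), Cbr2 (1.96) and Dgkeos (1.99). Of the 10 genes Pth (1.69) and Psmb11 (1.78) came between Snhg11 and Crip3. For Pth, Psmb11 was the nearest of all at 0.507, ahead of Trbv2 (0.587), Snhg11 (0.614), Slc6a19 (0.727), Dgkeos (0.862), Trbv3 (0.967) and Chga (0.972). Trbv2 and Trbv3 are variable segments of the T cell receptor, and Slc6a19 is an amino acid transporter of gut and kidney. Of the 10 genes, Aire was the farthest from both: it differed from Pth by 3.13 and from Prss16 by 4.0. Fezf2 and Krt5 differed from Pth by 2.82 and 2.81, and Epcam by 2.62, so the 3 medullary genes were the farthest from Pth among the other 9. For Prss16 this did not hold: the medullary gene Krt5 (3.19) was nearer than the cortical gene Dll4 (3.46) and Epcam (3.52). The measure rests on libraries that share groups and carries no test.

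In the grafts 3 of the 10 genes (Dll4, Krt8 and Epcam) passed the filter on low counts, and the other 7 had at most 10 counts in any library. Counts of Prss16 were 0 and 4 with PBS against 0 and 3 with ATO, those of Psmb11 0 and 0 against 7 and 0, and those of Aire 0 and 0 against 1 and 0. Foxn1 had 1 and 0 against 0 and 0, Fezf2 1 and 0 against 5 and 0, Krt5 8 and 5 against 0 and 10, and Pth 0 in all 4 libraries. A count of 0 allows up to 3 counts in a library, so lower levels were not detectable at this depth. This limit takes in counting error alone, as reads that carry no molecular identifier are not independent molecules.

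The 3 others were measurable. Dll4 had 39 and 31 against 62 and 75 counts, which is 2.46 ± 0.536 and 4.75 ± 0.254 CPM (n = 2 each), with both ATO libraries higher. Epcam had 406 and 431 against 200 and 291 counts, 29.2 ± 0.441 and 16.9 ± 3.10 CPM (n = 2 each), with both ATO libraries lower. Krt8 had 45 and 36 against 0 and 68 counts and overlapped. Of the 10 genes 1 was thus above and 1 below without overlap, where 31.7% and 30.0% of the 15468 genes tested were, and 13.9% of all genes were called by edgeR's quasi-likelihood test. The summed level of the 3 medullary genes was 0.336 to 0.658 CPM, so the compartment ratio is not read in the grafts.

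Of the wider lists, 2 of 8 tested cortical genes rose after ATO in the grafts (Scx and Ccl25), 1 of 9 medullary genes (Itgb4) and 1 of 3 tuft cell genes (Dclk1), and 1 of 10 general epithelial genes, Spint2, fell, where 7.37% of all genes rose and 6.57% fell. Ccl25 went from 193 and 239 to 530 and 387 counts (log2 difference 1.10, SE 0.29, edgeR adjusted p = 0.0323), and was lost without either PBS library or ATO replicate 1 (adjusted p = 0.0649 to 0.153). Scx passed at 2.78 (SE 0.79, adjusted p = 0.0392) from 5 and 1 against 23 and 20 counts and was lost without any 1 library (adjusted p = 0.0609 to 0.224), and Dclk1 at 2.17 (SE 0.53, adjusted p = 0.0233) was lost without PBS replicate 2 or ATO replicate 2 (adjusted p up to 0.0830). Itgb4, an integrin of epithelia and of endothelium, differed by 1.54 (SE 0.32, adjusted p = 0.0143) and kept its call without any 1 library. Spint2 fell by 0.97 (SE 0.21, adjusted p = 0.0167), lost without PBS replicate 1 (-0.76, adjusted p = 0.106). The fibroblast genes rose beside them, 4 of 7, with a summed level of 493 and 245 CPM after PBS and 645 and 1671 CPM after ATO, and their part was not tested. Of the 18 cortical genes 8 were at the floor after PBS and 5 after ATO, among them Tbata, Slc46a2 and Pax1. The spans of Ccl25, Scx and Dclk1 overlap those of the protein-coding genes Elavl1, Bop1 and Gm21954. The use of strand in the counting is not given, so reads from these partners cannot be told apart.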

How the data were processed

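Gene counts of the 13 mouse libraries were used as deposited by the authors, and the FPKM columns the authors deposited beside them were not used. Per the submitters' processing notes, FastQC 0.10.1, cutadapt 1.9.1 and HISAT2 2.0.1 were used on GRCm38/mm10. The counting program, annotation and use of strand are not given in the sources used here. The labels' protocols name TRIzol and a SMARTer kit, next to a passage on cell culture that matches no tissue sample. Of the W/W gene models, 99.4% had the start and end of GENCODE vM21 on GRCm38, and 2.83% of those in the graft table, whose positions are therefore not printed.

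The 9 W/W libraries were fitted together as 3 groups and the 4 grafts alone, with edgeR 4.0.16 (R 4.3.3): filterByExpr, TMM and its quasi-likelihood test, p-values being adjusted by Benjamini-Hochberg over all 18119 and 15468 genes tested, called at an adjusted p under 0.05. The script was tested on simulated data. Alternatives were DESeq2 1.42.0, other normalizations, no filter, only the groups compared, a replicate block and leaving out each library. The members and all 17 gene lists were chosen with earlier results of these data known. Named genes were the called genes of the lists, the markers of other cells and, for Prss16 and Pth, the 6 most alike genes without a serial name. Same-numbered libraries of the W/W groups correlated at -0.124 to 0.136, so the numbers were not taken as pairs. In the grafts same-numbered libraries correlated at -0.130 and differently numbered ones at 0.130. With 2 libraries per group these values must mirror each other, so they cannot show whether the grafts were paired. The grafts were not taken as pairs either. A few list genes are counted in their lists but not reported here by name.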

Additional observations from a re-analysis of the deposited data

How the results depend on the processing

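Count totals depended on the tool and filter. Called genes in regressing against water went from 1396 to 3354 with DESeq2 and 2689 with no filter. In progressing against water 2157 became 3733 with DESeq2, 3594 with no filter and 882 with only these groups fitted. Between the outcomes 2289 became 4121 with DESeq2 and 3621 with no filter, and in the grafts 2157 became 3274 with no filter. For regressing against water, the 5 cortical genes became 12 with DESeq2 and 12 with no filter, and the 3 medullary genes 6 with DESeq2. For progressing against water, the 10 cortical genes became 5 with only these groups fitted, and the 7 medullary genes 12 with DESeq2 and 11 with no filter. Between the outcomes the 4 medullary genes became 7 with no filter, and in the grafts the 2 cortical genes became 1 with DESeq2.

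With the replicate number as a block, called genes in progressing against water became 1405 and its cortical genes 6, the medullary genes in regressing against water 0, called genes in the grafts 1350 and their cortical genes 0. The crossed pairing of the grafts, chosen after seeing the data, gave 3298.

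Leaving out 1 library gave 60 to 1190 called genes (cortical 1 to 10, medullary 0 to 2) in regressing against water, 907 to 2557 (6 to 10, 5 to 9) in progressing against water, 177 to 2000 (9 to 16, 2 to 5) between the outcomes and 685 to 2420 (0 to 1, 1 to 2) in the grafts. The mean log2 compartment ratio ran from -1.75 to -0.77 with water, 1.04 to 1.81 with progression, 2.93 to 3.63 with regression, 3.22 to 3.83 in PBS and 3.52 to 3.87 in ATO grafts. Each graft value there is that of a single library, on a medullary sum of 0.336 to 0.658 CPM, so graft ratios are not read. With only Prss16 and Psmb11 as cortical genes the mean ratio was -4.51 with water, -3.27 with progression and 3.0 with regression. In ATO grafts it was -0.76, which is not read either. With only Aire and Fezf2 as medullary genes the mean ratio was 1.28 with water, 3.67 with progression and 5.69 with regression. The other graft values could not be computed because a sum was 0. Pecam1 between the outcomes ran from -0.056 without progressing replicate 1, a reversal, to 0.50 without progressing replicate 2. The cause of these changes was not tested. Counting each remaining value, of a single gene or a list, once per setting, 769 kept their call or moved within the spread, 42 moved further, 24 lost the threshold and 6 gained it. Without 1 library these numbers were 616, 77, 143 and 1. In the grafts 7 of the 10 genes did not pass the filter, at totals like those of the W/W thymus, and levels under the floor were not detectable.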
